A study of Mus musculus with 2 samples.

Results

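Ms4a4a, Ms4a4c, Ms4a6b, Ms4a6c, Ms4a6d and Ms4a7 are 6 of the 17 Ms4a genes in a matrix of 25909 genes measured by single-cell RNA sequencing in liver myeloid cells. They were chosen by name with measured levels of these cells already known, as genes whose level turns over between monocyte and macrophage states, so their levels by cell class are given as a description. The cells came from 4 male mice, 1 per group, that were 6 to 12 weeks old when feeding began according to the methods. An Egr2fl/fl mouse and a Lyz2Cre/+.Egr2fl/fl mouse were fed a normal diet (ND), and 1 mouse of each genotype was fed CDA-HFD, a high-fat diet without choline whose protein is given as amino acids, for 7 weeks. All 4 mice carried loxP-flanked Egr2 alleles, and Cre was expressed from the Lyz2 locus, which is active in monocytes, macrophages and neutrophils. Liver cells were sorted as CD45.2+ CD11b+ after exclusion of cells with SiglecF, NK1.1, B220 or CD90.2, were marked with a hashtag per mouse and were sequenced as 1 pool, to which the ND-fed mice gave 3000 cells each and the CDA-HFD-fed mice 9000 each. Each hashtag was matched to its mouse by the label of the hashtag library, while the note on cells loaded gives another number for the hashtag of the CDA-HFD-fed Lyz2Cre/+.Egr2fl/fl mouse. With 1 mouse per group no difference between diets or genotypes could be tested, and no spread between animals could be given.

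The Ms4a genes encode small proteins that cross the membrane several times and have both ends inside the cell. The family takes its name from Ms4a1, the B cell antigen CD20, and also holds Ms4a2, the beta chain of the high-affinity IgE receptor. Its myeloid members sit next to one another in a cluster and are thought to work as partners of other receptors. Ms4a4a associates with the fungal receptor Dectin-1 in macrophages, the human locus around it is linked to the level of soluble TREM2, and Ms4a7 is a familiar marker of macrophages that entered a tissue from the blood. Ms4a4c is known as an interferon-inducible gene of monocytes.

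In the GENCODE M21 annotation of GRCm38 the 6 genes lie within 283.8 kb of chromosome 19 (chr19:11321039-11604849), with 2 other family members, Ms4a4b and Ms4a4d, between them. Ms4a7 (chr19:11321039-11336146) and Ms4a6d (chr19:11586604-11604849) are on the minus strand at the ends of this stretch. Ms4a4a (chr19:11375523-11392790), Ms4a4c (chr19:11404770-11427246), Ms4a6c (chr19:11469366-11482192) and Ms4a6b (chr19:11516512-11531256) are on the plus strand. RefSeq promoters of 250 bases before to 50 bases after the start, on GRCm38.p6, were matched for 5 of the 6 members. The promoters of Ms4a4c and Ms4a7 are shown because these genes stood at opposite ends of the monocyte to macrophage series, with the letters GAGGAA, the core of PU.1-type ETS motifs, in capitals. They run on the plus strand over chr19:11407411-11407710 and on the minus strand over chr19:11336097-11336396.
Ms4a4c: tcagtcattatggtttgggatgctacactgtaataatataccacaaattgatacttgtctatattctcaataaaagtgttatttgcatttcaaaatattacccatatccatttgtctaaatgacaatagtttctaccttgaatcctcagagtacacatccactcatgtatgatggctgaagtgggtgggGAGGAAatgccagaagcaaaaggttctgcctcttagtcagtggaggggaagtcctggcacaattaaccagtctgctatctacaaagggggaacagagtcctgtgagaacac
Ms4a7: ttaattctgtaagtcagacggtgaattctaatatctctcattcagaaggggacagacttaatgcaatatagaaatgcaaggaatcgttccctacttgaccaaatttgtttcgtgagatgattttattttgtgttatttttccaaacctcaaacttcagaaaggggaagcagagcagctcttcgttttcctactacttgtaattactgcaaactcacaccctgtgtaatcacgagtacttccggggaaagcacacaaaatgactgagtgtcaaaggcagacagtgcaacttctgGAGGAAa
GAGGAA began at position -61 of Ms4a4c and at position 43 of Ms4a7, counted from the start, and on either strand these letters occur in 28.3% of the 32851 promoters of the table. The promoters of Ms4a6b (chr19:11518309-11518608) and Ms4a6c (chr19:11469118-11469417), both on the plus strand, are shown because the levels of these genes ran most closely together, with the longest stretch of bases they share in capitals.
Ms4a6b: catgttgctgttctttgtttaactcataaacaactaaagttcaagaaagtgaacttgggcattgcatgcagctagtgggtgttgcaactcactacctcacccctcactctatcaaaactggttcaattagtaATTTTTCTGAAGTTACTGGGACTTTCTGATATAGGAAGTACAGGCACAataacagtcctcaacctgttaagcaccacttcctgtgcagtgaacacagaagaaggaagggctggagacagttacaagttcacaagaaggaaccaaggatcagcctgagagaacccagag
Ms4a6c: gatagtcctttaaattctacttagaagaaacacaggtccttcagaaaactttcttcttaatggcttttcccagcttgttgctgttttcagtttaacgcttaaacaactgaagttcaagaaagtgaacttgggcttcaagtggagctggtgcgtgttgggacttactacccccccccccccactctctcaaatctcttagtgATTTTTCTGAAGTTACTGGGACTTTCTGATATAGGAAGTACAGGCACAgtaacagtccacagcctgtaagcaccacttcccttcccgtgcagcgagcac
That stretch was 48 bases long and was found in no other promoter of the table, while the other 9 pairs of members shared at most 9 bases in a row. The letters of the EICE motif (GGAANNGAAA), of paired interferon half-sites (GAAANNGAAA), of C/EBP (TTGCNNAA) and of EGR (GCGNGGGCG) were in none of the 5 windows on either strand, against 2.715%, 3.44%, 10.8% and 5.55% of all promoters. The MAF half-site TGCTGA was found 2 times in the Ms4a4a window, at positions -203 and -18, and not in the other 4, and 19.5% of all promoters hold it. The RefSeq start lay 2891 bases inside the GENCODE gene for Ms4a4c and 2047 bases inside it for Ms4a6b, so these windows belong to a downstream start.

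The 4 mice gave between 1590 and 6186 cells, between 27840300 and 90124521 counts, and a median of 13170 to 16460 counts per cell, and no barcode was given to more than 1 mouse. A level is the summed count of a gene over the cells of a class in a mouse, per 1000000 counts of those cells (CPM), with an exact Poisson 95% interval that, like every interval here, covers counting error only. The deleted gene, Egr2, was at 13.3 CPM in the ND-fed Egr2fl/fl mouse and 5.86 CPM in the ND-fed Lyz2Cre/+.Egr2fl/fl mouse, and at 49.4 CPM and 18.2 CPM in the CDA-HFD-fed mice, so it was lower under Cre on both diets and not at 0. Cells were put into classes by scores of marker lists that hold no Ms4a gene, and 1231 of 11653 classed cells (10.6%) lay within 0.05 of a limit. Vcan, Ly6c2, Chil3 and F13a1 were among the leading genes of the Ly6Chi monocyte-like class (77 to 966 cells per mouse), Fcna, Clec4f, C6, Vsig4, Timd4 and Cd163 among those of the Kupffer cell-like class, and Mmp12, Gpnmb, Spp1 and Cd63 among those of the lipid-associated macrophage-like (LAM-like) class. The class called other macrophage-like, cells that scored for macrophage genes but not for Kupffer, moKC (monocyte-derived Kupffer cell) or LAM genes, was led by Tmem119, Olfml3, Ang, Rnase4 and Ms4a7, with none of its own list among its first 10 genes. Cells with some of both the monocyte and the macrophage genes were called transitional and were led by Apoc2, Ly6i, Thbs1 and Ms4a4a. Summed levels of marker lists of other cells in the Ly6Chi, Ly6Clo, transitional, other macrophage-like and LAM-like classes were 206 to 645 CPM for neutrophils, 33.4 to 177 CPM for B cells, 14.2 to 60.5 CPM for endothelial cells, 1.87 to 27.95 CPM for hepatocytes and at most 56.5 CPM for T or NK cells. The Kupffer list ran from 12.7 to 489.5 CPM, the Cd209a+ dendritic list from 70.4 to 354 CPM and the proliferation list from 9.73 to 284.5 CPM over these classes. Levels are given for classes of at least 50 cells in a mouse, which leaves Kupffer cell-like cells to the ND-fed mice (20 cells in the CDA-HFD-fed mice) and LAM-like, moKC-like and transitional cells to the CDA-HFD-fed mice.

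Ms4a7 was the member on the macrophage side. Its level in Ly6Chi monocyte-like cells was 24.3 CPM in the ND-fed Egr2fl/fl mouse, 13.6 CPM in the ND-fed Lyz2Cre/+.Egr2fl/fl mouse, 16.0 CPM in the CDA-HFD-fed Egr2fl/fl mouse and 23.7 CPM in the CDA-HFD-fed Lyz2Cre/+.Egr2fl/fl mouse. In other macrophage-like cells of the same mice, in the same order, it was 254, 179, 314 and 511 CPM. Every macrophage value was thus above every monocyte value, and within a mouse the ratio was 10.5 (7.51 to 14.9), 13.2 (7.65 to 24.5), 19.6 (16.8 to 23.0) and 21.6 (19.2 to 24.3). LAM-like cells had 304 CPM in the Egr2fl/fl and 484 CPM in the Lyz2Cre/+.Egr2fl/fl mouse, which was 19.0 (16.3 to 22.2) and 20.4 (18.2 to 23.0) times their Ly6Chi monocyte-like cells. In moKC-like cells the level was 405 CPM in the Egr2fl/fl mouse (68 cells) and 406 CPM in the Lyz2Cre/+.Egr2fl/fl mouse (93 cells). Resident Kupffer cell-like cells, the long-lived macrophages of the healthy liver, were far lower, at 59.1 CPM and 64.2 CPM in the ND-fed mice, which was still 2.43 (1.77 to 3.44) and 4.71 (2.80 to 8.64) times the Ly6Chi monocyte-like level. On ND these ratios moved when cells with an interferon score, the mean scaled level of 10 interferon-responding genes, of at least 0.1 were left out, a step chosen after seeing the data, since the Ly6Chi monocyte-like level was then 7.18 CPM and 7.30 CPM. They became 41.1 (18.6 to 113) and 31.3 (12.9 to 98.8) for other macrophage-like and 9.28 (4.22 to 25.5) and 8.79 (3.72 to 27.3) for Kupffer cell-like cells. On CDA-HFD they became 20.8 and 35.0 for other macrophage-like and 17.7 and 32.3 for LAM-like cells of the Egr2fl/fl and Lyz2Cre/+.Egr2fl/fl mice. Transitional cells lay between the states, with 39.4 CPM and 79.0 CPM. Ly6Clo monocyte-like cells had 8.49, 11.1, 10.2 and 17.25 CPM and Cd209a+ dendritic cell-like cells 2.13 to 3.93 CPM. Among the monocyte and macrophage classes of the CDA-HFD-fed Egr2fl/fl mouse the order was moKC-like, then other macrophage-like and LAM-like with overlapping intervals, then transitional, then the monocyte classes, whereas in the CDA-HFD-fed Lyz2Cre/+.Egr2fl/fl mouse other macrophage-like came before LAM-like and LAM-like before moKC-like.

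Ms4a4c had the opposite course. It was at 1015, 781, 625 and 727 CPM in Ly6Chi monocyte-like cells of the ND-fed Egr2fl/fl, ND-fed Lyz2Cre/+.Egr2fl/fl, CDA-HFD-fed Egr2fl/fl and CDA-HFD-fed Lyz2Cre/+.Egr2fl/fl mice. In the same order it was at 201, 261, 245 and 344 CPM in other macrophage-like cells. The highest of these macrophage values was below the lowest Ly6Chi monocyte-like value. LAM-like cells had 59.4 CPM and 107 CPM, which was 0.095 (0.0894 to 0.101) and 0.147 (0.139 to 0.154) of the Ly6Chi monocyte-like level, and moKC-like cells had 52.0 CPM and 77.9 CPM. Kupffer cell-like cells were lowest among the macrophages at 35.9 CPM and 35.7 CPM. Transitional cells were again between the states at 369 CPM and 518 CPM, and Ly6Clo monocyte-like cells had 287, 196, 260 and 328 CPM. Cd209a+ dendritic cell-like cells held 254 to 319 CPM, so Ms4a4c was also measured in a dendritic class in which Ms4a7 was at most 3.93 CPM.

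Ms4a6b and Ms4a6c followed Ms4a4c with smaller ratios. Ms4a6b was at 605, 589, 430 and 550 CPM in Ly6Chi monocyte-like cells of the 4 mice and at 122 CPM and 184 CPM in LAM-like cells, a ratio of 0.283 (0.270 to 0.297) and 0.335 (0.321 to 0.349). Ms4a6c was at 2142, 1894, 1839 and 2163 CPM in Ly6Chi monocyte-like cells and at 616 CPM and 863 CPM in LAM-like cells, a ratio of 0.335 (0.327 to 0.342) and 0.399 (0.391 to 0.407). Both genes were lower in Kupffer cell-like than in any other monocyte or macrophage class, with 78.4 CPM and 75.9 CPM of Ms4a6b and 427 CPM and 440 CPM of Ms4a6c. Other macrophage-like cells kept more of both, 264, 323, 305 and 392 CPM of Ms4a6b and 1076, 1044, 1179 and 1481 CPM of Ms4a6c.

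Ms4a4a was highest in monocyte and transitional cells and nearly missing in Kupffer cells. Ly6Chi monocyte-like cells had 113, 117, 138 and 174 CPM and Ly6Clo monocyte-like cells 76.4, 98.7, 121 and 158 CPM. Transitional cells had 132 CPM and 163 CPM, which did not separate from the Ly6Chi monocyte-like cells of the same mouse by their intervals. Kupffer cell-like cells had 2.04 CPM and 3.20 CPM, a ratio of 0.018 (0.0124 to 0.0256) and 0.0274 (0.0198 to 0.0376) to Ly6Chi monocyte-like cells. Other macrophage-like cells were at 31.2 CPM and 50.7 CPM on ND and at 103 CPM and 131 CPM on CDA-HFD, so this class differed by diet more than by genotype. LAM-like cells had 45.5 CPM and 65.5 CPM.

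Ms4a6d was about level between the states on CDA-HFD. On CDA-HFD it was at 224 CPM and 261 CPM in Ly6Chi monocyte-like, 215 CPM and 265 CPM in transitional, 214 CPM and 284 CPM in other macrophage-like and 206 CPM and 265 CPM in LAM-like cells of the Egr2fl/fl and Lyz2Cre/+.Egr2fl/fl mice. The ratio of LAM-like to Ly6Chi monocyte-like cells was 0.918 (0.873 to 0.965) in the first, or 1.065 with classes from unsupervised clusters, and 1.015 (0.9705 to 1.06) in the second. With those clusters the ratio of other macrophage-like to Ly6Chi monocyte-like cells was 0.775 in the second mouse. It was lower in Ly6Clo monocyte-like cells, at 84.9 CPM and 54.1 CPM on ND and at 132 CPM and 171 CPM on CDA-HFD. The highest value was in Ly6Chi monocyte-like cells of the ND-fed Egr2fl/fl mouse, at 347 CPM, against 190 CPM in its Kupffer cell-like cells. In the ND-fed Lyz2Cre/+.Egr2fl/fl mouse the same classes had 203 CPM and 187 CPM. Among cells with an interferon score below 0.1, a subset chosen after seeing the data, these classes were level in the first mouse, at 193 CPM and 196 CPM, and the ratio of Kupffer cell-like to Ly6Chi monocyte-like cells was 1.015 (0.857 to 1.21) in place of 0.548.

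**Figure D1:**
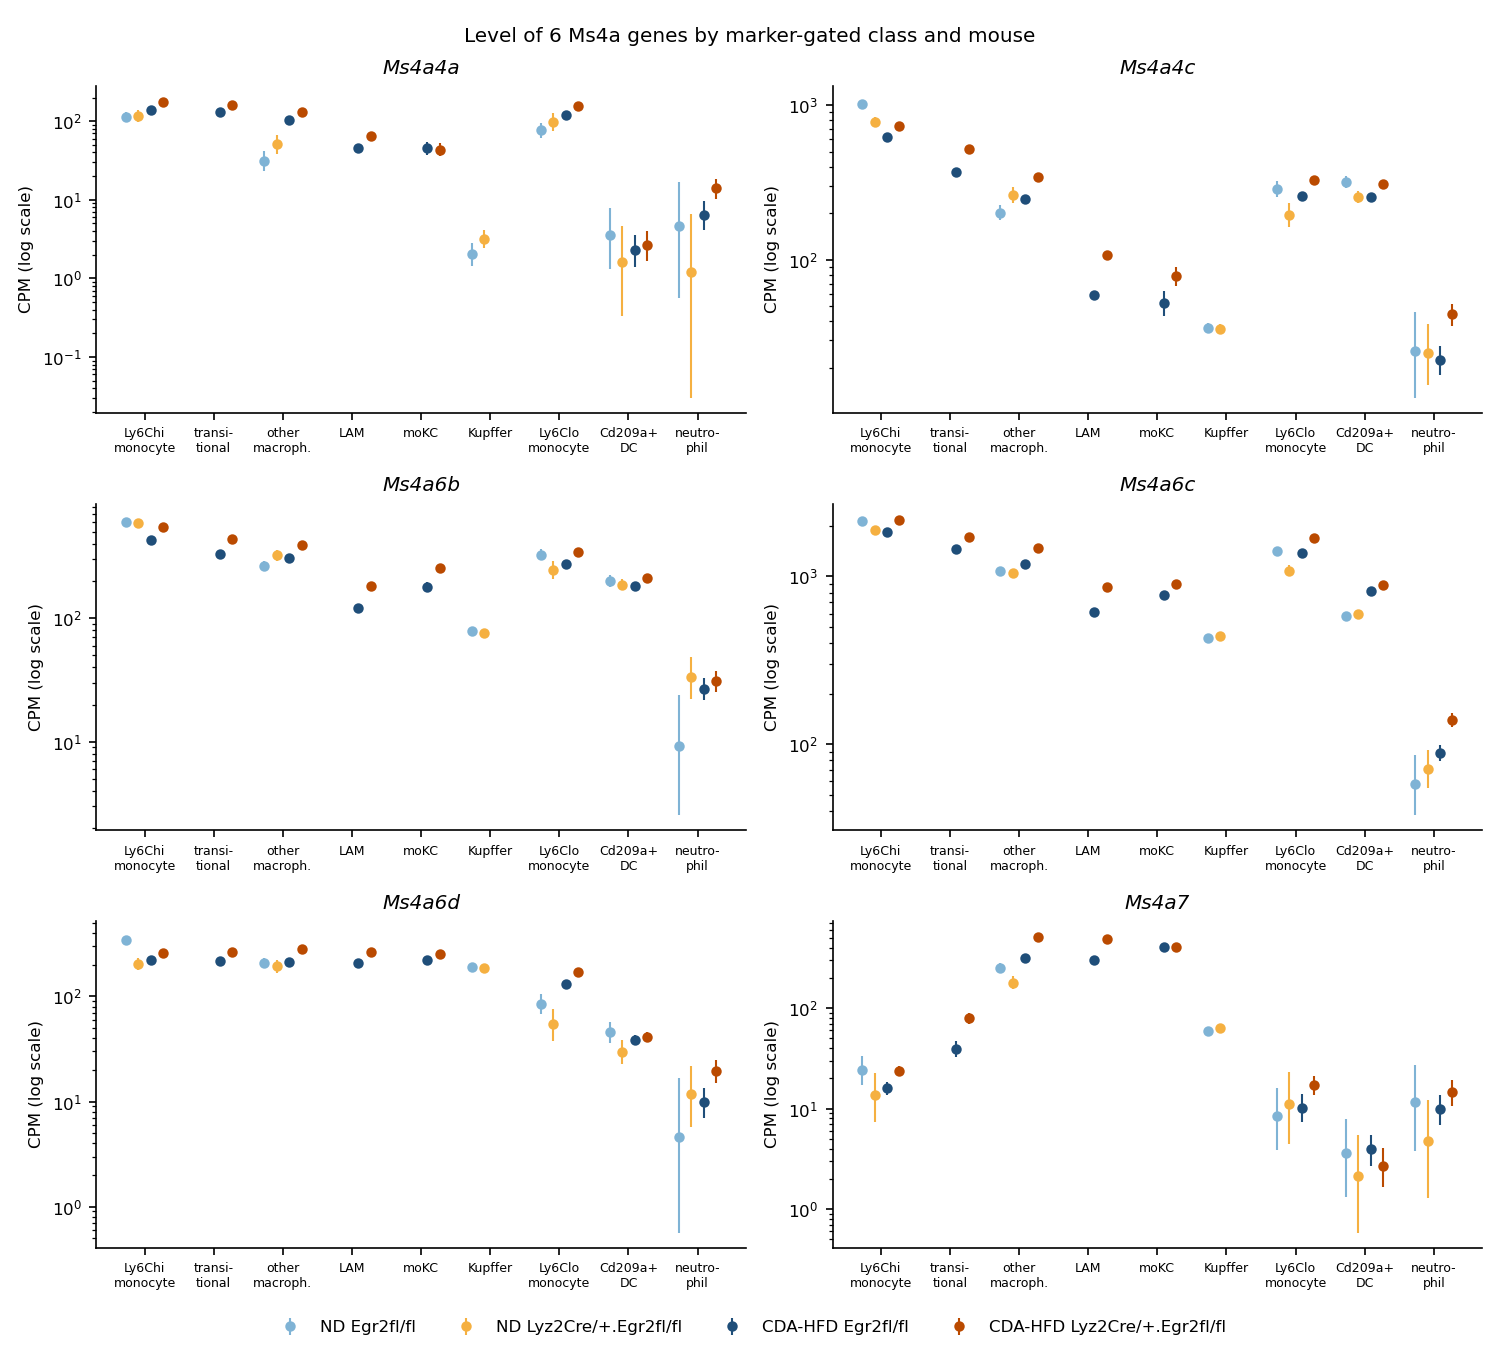
Level of each gene (CPM, log axis) in 9 marker-gated classes, 1 point per mouse, with exact Poisson 95% intervals for counting error, LAM being lipid-associated macrophage-like and DC dendritic cell-like. Ms4a7 goes up from 16.0 CPM in Ly6Chi monocyte-like to 304 CPM in LAM-like cells of the CDA-HFD-fed Egr2fl/fl mouse while Ms4a4c goes down from 625 to 59.4 CPM and Ms4a6d stays level at 224 and 206 CPM.

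Read against all genes, the LAM-like class of the CDA-HFD-fed Egr2fl/fl mouse had 4 of the 6 members at least 1.5-fold lower than the Ly6Chi monocyte-like class, where 16.1% of 10307 genes tested were, and 1 member at least 1.5-fold higher, where 19.5% were. In the Lyz2Cre/+.Egr2fl/fl mouse the same counts were 4 members beside 14.7% of genes and 1 beside 18.8%. For other macrophage-like cells on CDA-HFD, 2 members were lower in the Egr2fl/fl mouse beside 12.6% of genes and 1 in the Lyz2Cre/+.Egr2fl/fl mouse beside 11.1%, and Ms4a7 was the higher member in each, beside 15.3% and 13.4%. Kupffer cell-like cells of the ND-fed Egr2fl/fl mouse had 5 members lower beside 19.1% of genes and 1 higher beside 31.6%, and those of the ND-fed Lyz2Cre/+.Egr2fl/fl mouse 4 lower beside 19.6% and 1 higher beside 34.3%. The median ratio of the members between LAM-like and Ly6Chi monocyte-like cells was 0.332 in the Egr2fl/fl mouse, where that of all genes tested was 1.00, and the members had been chosen for such differences.

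The course of each gene was followed in finer steps by ordering cells along a marker axis on CDA-HFD, 3103 from the Egr2fl/fl and 3489 from the Lyz2Cre/+.Egr2fl/fl mouse. The axis is the score of a macrophage list, with C1qa, C1qb, C1qc, Apoe and Mrc1 among its genes, minus that of a monocyte list, with Ly6c2, Plac8, Vcan, F13a1 and Chil3 among its genes, cut into 10 bins over both mice. Ms4a7 was at 6.04 CPM in the first bin and 475 CPM in the last in the Egr2fl/fl mouse, and at 14.8 CPM and 652 CPM in the Lyz2Cre/+.Egr2fl/fl mouse, and each of the 9 steps went up in both. Its level was at most 28.1 CPM and 55.3 CPM through the fourth bin and climbed from there. Ms4a4c went from 715 to 77.2 CPM in the Egr2fl/fl mouse and from 804 to 92.2 CPM in the other, with steps down in each of the first 4 bins, where Ms4a7 was still low. Over the same bins the last level was 0.493 and 0.408 of the first for Ms4a4a, 0.484 and 0.490 for Ms4a6b, 0.441 and 0.448 for Ms4a6c, and 1.04 and 1.035 for Ms4a6d. The last bins of Ms4a6b and Ms4a6c in the Egr2fl/fl mouse were no lower than the bin before the last, at 197.5 after 178 CPM and at 837 after 827 CPM. The same held for Ms4a4a in that mouse, at 67.4 after 63.0 CPM, and for Ms4a6b in the Lyz2Cre/+.Egr2fl/fl mouse, at 264 after 257 CPM. Median counts per cell went up along the axis from 12560 to 26180 in the Egr2fl/fl mouse and from 13470 to 23770 in the other, and their part in these courses was not tested.

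**Figure D2:**
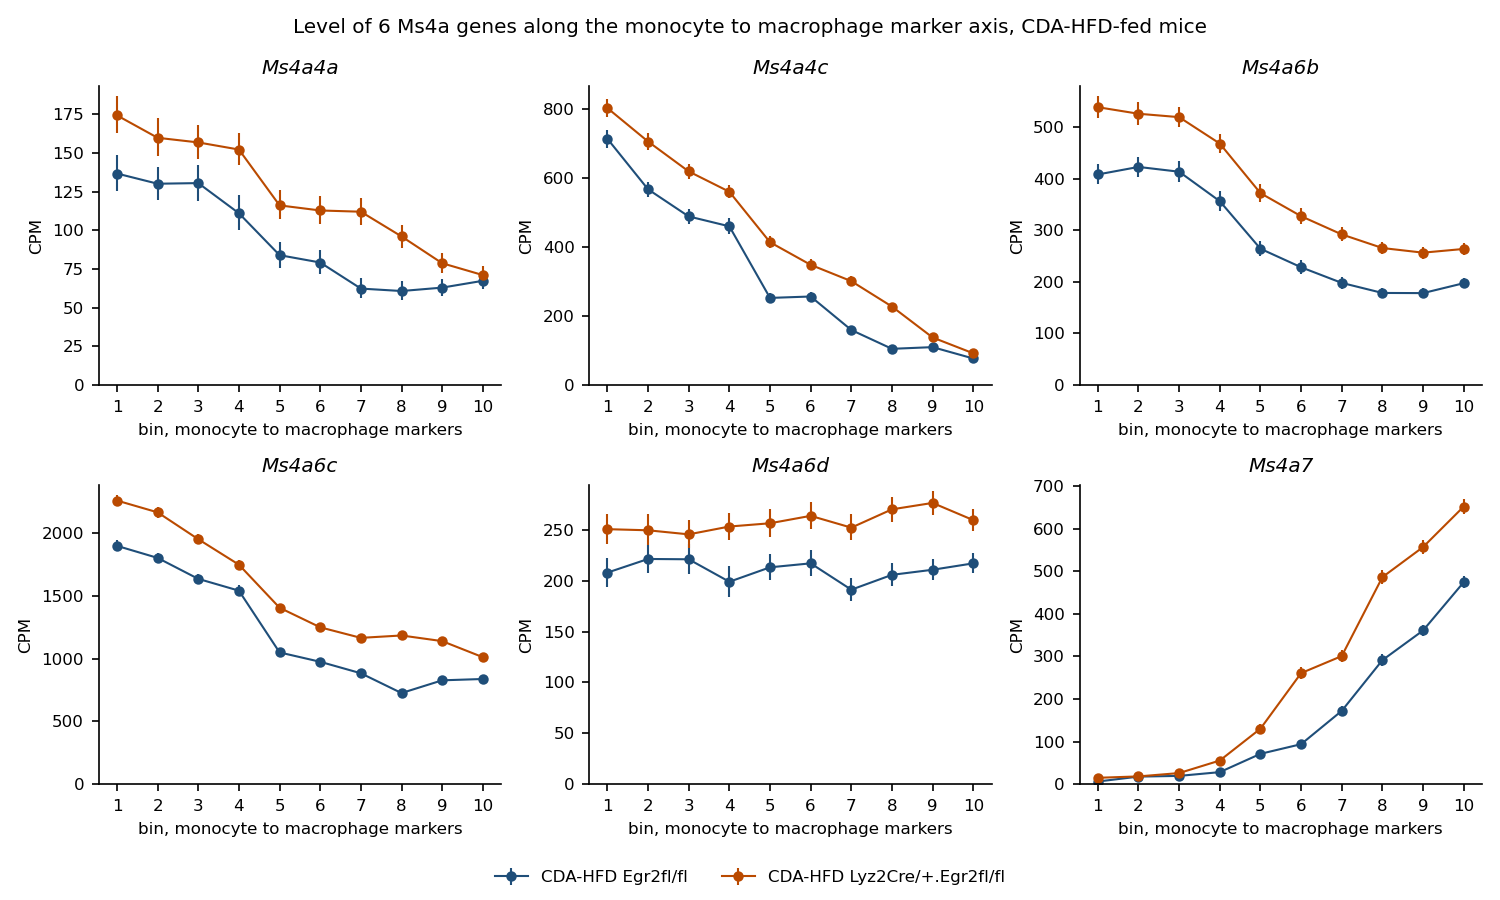
Level of each gene (CPM) in 10 bins of cells ordered from monocyte to macrophage markers, in the CDA-HFD-fed Egr2fl/fl mouse (blue) and Lyz2Cre/+.Egr2fl/fl mouse (orange), with exact Poisson 95% intervals. Ms4a7 climbs to 475 and 652 CPM, Ms4a6d ends at 1.04 and 1.035 times its first level, and the other 4 genes end below 0.5 of theirs.

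Single cells were sorted by whether they held counts of Ms4a4c, of Ms4a7 or of both, after each was thinned at random to 5000 counts. Among Ly6Chi monocyte-like cells 77.9% to 88.2% had a count of Ms4a4c and 4.07% to 7.56% a count of Ms4a7 over the 4 mice. In LAM-like cells Ms4a4c was found in 18.1% and Ms4a7 in 47.3% of cells of the Egr2fl/fl mouse, and in 29.0% and 59.1% of the Lyz2Cre/+.Egr2fl/fl mouse. Without thinning, the Ms4a7 share of the first was 63.3%. Other macrophage-like cells were mixed. In the CDA-HFD-fed Egr2fl/fl mouse 28.2% of them had Ms4a4c without Ms4a7, 24.7% had Ms4a7 without Ms4a4c, and 17.0% had both, where the product of the 2 shares was 18.8%. In the CDA-HFD-fed Lyz2Cre/+.Egr2fl/fl mouse these shares were 25.5%, 26.5% and 31.7%, and the product was 33.3%. The intervals of the share with both genes, 13.85% to 20.5% and 28.3% to 35.25%, each held the product. In LAM-like cells both genes were found in 9.67% (7.715% to 11.9%) and 18.6% (15.8% to 21.7%), and these intervals also held the products of 8.56% and 17.1%.

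Counts of a gene can also come from free RNA. S100a8, a gene of neutrophils, had a count in 35.1% to 49.1% of the thinned cells of the monocyte and macrophage classes, against at least 99.3% of neutrophil-like cells of the CDA-HFD-fed mice. Ms4a7 had a count in 3.36% and 2.11% of those neutrophil-like cells, and in 4.07% and 6.76% of Ly6Chi monocyte-like cells of the same mice. Ms4a4c had a count in 8.725% and 11.3% of those neutrophil-like cells, beside the 18.1% and 29.0% of LAM-like cells, and the part of free RNA in the shares with both genes was not tested. By level, Ms4a7 was at 9.85 CPM and 14.5 CPM in neutrophil-like cells of these mice, near its 10.2 CPM and 17.25 CPM in Ly6Clo monocyte-like cells and below its 16.0 CPM and 23.7 CPM in Ly6Chi monocyte-like cells. Its diet and genotype ratios in the monocyte classes are of levels this low, and the part of free RNA in them was not tested. Of the neutrophil-like cells, 685 and 556 had fewer than 5000 counts and were left out, which left 149 and 142.

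**Figure D3:**
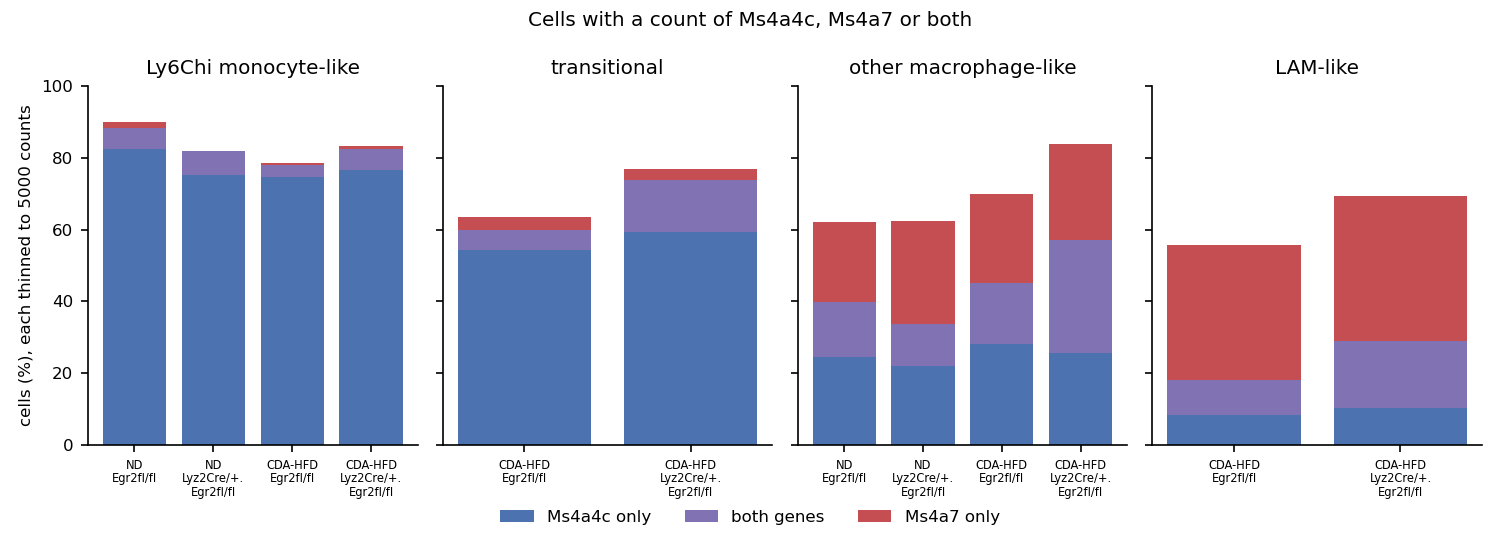
Share of cells (%) with a count of Ms4a4c only, of both genes or of Ms4a7 only in 4 classes, 1 bar per mouse, each cell thinned to 5000 counts. Ms4a4c alone takes 74.6% to 82.35% of Ly6Chi monocyte-like cells, and Ms4a7 alone 37.7% and 40.5% of LAM-like cells.

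Diet was compared within each genotype, 1 mouse against 1. In other macrophage-like cells all 12 ratios of CDA-HFD to ND were above 1, beside 44.7% of all genes tested in Egr2fl/fl and 43.1% in Lyz2Cre/+.Egr2fl/fl mice. Of their intervals 11 were above 1, beside 17.1% and 15.3% of genes. Ms4a4a had ratios of 3.29 (2.465 to 4.498) in Egr2fl/fl and 2.59 (1.97 to 3.46) in Lyz2Cre/+.Egr2fl/fl mice. Ms4a7 was 1.24 (1.115 to 1.38) times higher on CDA-HFD in Egr2fl/fl and 2.85 (2.47 to 3.31) times higher in Lyz2Cre/+.Egr2fl/fl mice. With the mean over cells in place of summed counts the Ms4a7 ratio in Egr2fl/fl mice was 0.962, and with classes from unsupervised clusters the ratios of Ms4a4c and Ms4a6b in Lyz2Cre/+.Egr2fl/fl mice were 0.373 and 0.836. The class also differed by diet in other genes. Its summed Kupffer list was at 489.5 CPM and 314 CPM on ND and at 42.9 CPM and 54.4 CPM on CDA-HFD, and its summed proliferation list at 233 CPM and 284.5 CPM on ND and at 87.3 CPM and 94.7 CPM on CDA-HFD. In a clustering of all cells, 93.6% of 1 cluster of 125 cells belonged to this class, and 66 and 49 of its cells came from the ND-fed mice and 2 and 8 from the CDA-HFD-fed mice. The part of these differences in the diet ratios was not tested. In this class 1 member was at least 1.5-fold higher in Egr2fl/fl mice, beside 10.1% of all genes tested, and 2 were in Lyz2Cre/+.Egr2fl/fl mice, beside 12.3%. Ly6Chi monocyte-like cells of Egr2fl/fl mice had 3 members at least 1.5-fold lower on CDA-HFD, beside 12.1% of genes, with ratios of 0.616 (0.583 to 0.651) for Ms4a4c, 0.647 (0.590 to 0.711) for Ms4a6d and 0.660 (0.464 to 0.960) for Ms4a7. In Lyz2Cre/+.Egr2fl/fl mice the same ratios were 0.932 (0.867 to 1.00), 1.28 (1.115 to 1.48) and 1.74 (1.02 to 3.22), and Ms4a7 was the 1 member at least 1.5-fold higher, beside 15.9% of genes. The summed level of 10 interferon-responding genes in Ly6Chi monocyte-like cells was 2604 CPM on ND and 552 CPM on CDA-HFD in Egr2fl/fl mice, and 787.5 CPM and 650 CPM in Lyz2Cre/+.Egr2fl/fl mice. The part of these interferon-responding genes in the diet ratios was not tested. Among cells with an interferon score below 0.1, a subset chosen after seeing the data, the ratio in Egr2fl/fl mice was 0.998 (0.848 to 1.18) for Ms4a6d, 0.646 (0.594 to 0.704) for Ms4a4c and 2.13 (0.949 to 5.92) for Ms4a7. In Lyz2Cre/+.Egr2fl/fl mice it was 1.57 (1.28 to 1.94), 0.952 (0.862 to 1.05) and 1.95 (0.813 to 6.12). In other macrophage-like cells below that score all 12 ratios were above 1, beside 46.6% and 47.1% of genes, and 8 of their intervals were, beside 18.2% and 15.3%. Ly6Clo monocyte-like cells had 2 members at least 1.5-fold higher on CDA-HFD in Egr2fl/fl mice, beside 11.4% of genes, and 4 in Lyz2Cre/+.Egr2fl/fl mice, beside 15.1%. These counts add a small constant to each sum. Without it Ms4a7 was also past 1.5-fold in Lyz2Cre/+.Egr2fl/fl mice, at 1.55. Ms4a6d was past 1.5-fold in both genotypes, with ratios of 1.56 (1.24 to 1.97) and 3.17 (2.25 to 4.605). The ND-fed mice gave only 77 to 134 cells per class in these comparisons, and 37 to 67 Ly6Chi monocyte-like and other macrophage-like cells below that interferon score.

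Genotype was compared within each diet. On CDA-HFD all 6 members were higher in the Lyz2Cre/+.Egr2fl/fl than in the Egr2fl/fl mouse in each of 5 classes, Ly6Chi monocyte-like, transitional, other macrophage-like, LAM-like and Ly6Clo monocyte-like. The 30 ratios ran from 1.16 to 2.00, and all 30 intervals lay above 1. Of all genes tested, in the same class order, 21.1%, 19.3%, 18.4%, 26.0% and 17.0% had intervals above 1. Without Ms4a7 in both monocyte classes, where it was at 10.2 to 23.7 CPM beside 9.85 CPM and 14.5 CPM in neutrophil-like cells, 28 remain. The Ms4a7 ratio was 1.48 in Ly6Chi and 1.685 in Ly6Clo monocyte-like cells, where it was 0.616 with classes from unsupervised clusters, and 1.48 (0.941 to 2.33) in neutrophil-like cells. A ratio above 1 was found for 55.6% of all genes tested in Ly6Chi monocyte-like, 55.8% in transitional, 53.5% in other macrophage-like, 60.6% in LAM-like and 54.7% in Ly6Clo monocyte-like cells, so the direction by itself was common among all genes. In these 5 classes the sizes of the members' ratios were above the median of all genes. In LAM-like cells the median ratio of the 6 members was 1.475, against 1.04 for all genes tested, and in other macrophage-like cells 1.30 against 1.01. At least 1.5-fold higher were 3 members in LAM-like cells, beside 4.21% of genes, 1 in other macrophage-like (3.14%), 1 in transitional (6.20%), 1, Ms4a7, in Ly6Clo monocyte-like (4.38%) and 0 in Ly6Chi monocyte-like cells (4.10%). In Ccr7+ dendritic cell-like cells 2 members were above 1, beside 52.3% of genes, and 1 was at least 1.5-fold lower, beside 5.72%. Their median member ratio was 0.923. In Cd209a+ dendritic cell-like cells 5 members were above 1, beside 54.0% of genes, with a median member ratio of 1.11.

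The size of the ratio differed by class and member. In LAM-like cells it was 1.80 (1.67 to 1.93) for Ms4a4c, 1.59 (1.54 to 1.64) for Ms4a7 and 1.51 (1.43 to 1.59) for Ms4a6b, followed by 1.44 for Ms4a4a, 1.40 for Ms4a6c and 1.29 for Ms4a6d. In other macrophage-like cells Ms4a7 had the largest ratio at 1.63 (1.56 to 1.70), and in transitional cells it was 2.00 (1.61 to 2.51). A gene of monocytes and a gene of macrophages were thus both higher in the same class and mouse. In transitional cells with an interferon score below 0.1 that Ms4a7 ratio was 1.00 (0.736 to 1.36). In moKC-like cells 4 members had intervals above 1, Ms4a4c at 1.496 (1.185 to 1.90), Ms4a6b at 1.415 (1.25 to 1.61), Ms4a6c at 1.16 (1.09 to 1.24) and Ms4a6d at 1.13 (1.00 to 1.27). Ms4a7 was at 1.00 (0.917 to 1.10) and Ms4a4a at 0.961 (0.7285 to 1.27) there, and 0 members were at least 1.5-fold higher, beside 6.24% of genes. Along the marker axis each member was higher in the Lyz2Cre/+.Egr2fl/fl mouse in 10 of 10 bins, with intervals apart in 8 to 10 of them. Of 6127 genes with at least 100 counts in each bin, which hold 5 of the 6 members, 3.05% were higher in all 10 bins. The median bin ratio was 1.71 for Ms4a7, 1.37 for Ms4a6b, 1.32 for Ms4a4a, 1.26 for Ms4a4c, 1.25 for Ms4a6c and 1.21 for Ms4a6d.

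Other values moved with these. Neutrophil-like cells of the same mice had Ms4a6c at 88.1 CPM and 139 CPM. In them 4 members were at least 1.5-fold higher in the Lyz2Cre/+.Egr2fl/fl mouse, beside 6.78% of genes, with a median member ratio of 1.76. Genes behind the 6.78% had at least 100 counts over both mice, a limit not set for members, so count and share differ in basis. Among these 4 members, Ms4a4a had only 24 and 46 counts in neutrophil-like cells of the Egr2fl/fl and Lyz2Cre/+.Egr2fl/fl mice. Ms4a4c was at 22.4 CPM and 44.2 CPM in those cells of the Egr2fl/fl and Lyz2Cre/+.Egr2fl/fl mice, a ratio of 1.98 (1.501 to 2.62), beside its 59.4 CPM and 107 CPM in LAM-like cells. Cells with an interferon score of at least 0.1 made up 30.8% of LAM-like cells in the Lyz2Cre/+.Egr2fl/fl and 17.0% in the Egr2fl/fl mouse, and 42.9% against 20.9% of transitional cells. Among cells below that score, 29 of 30 ratios were above 1 and 25 of 30 intervals were. Of all genes tested in those cells, in the class order above, 55.5%, 56.0%, 54.1%, 60.0% and 54.6% had ratios above 1, and 19.7%, 18.9%, 17.7%, 23.9% and 17.1% had intervals above 1. In LAM-like cells the members' ratios were 1.875 for Ms4a4c and 1.70 for Ms4a7. The 5 members' ratios with intervals reaching 1 were Ms4a7 in Ly6Chi monocyte-like (0.931), transitional (1.00) and Ly6Clo monocyte-like cells (1.14), and Ms4a4a (1.04) and Ms4a6d (1.08) in transitional cells. Between the LAM-like cells of the Egr2fl/fl and Lyz2Cre/+.Egr2fl/fl mice the summed Kupffer list differed as well, at 46.8 CPM and 101 CPM, as did the proliferation list, at 95.6 CPM and 162 CPM. With classes from unsupervised clusters 23 of 24 ratios in 4 classes were above 1, the exception being Ms4a7 in Ly6Clo monocyte-like cells at 0.616. Other macrophage-like cells gave no value there, since their clusters held 2 and 29 cells of the Egr2fl/fl mouse, and of the clusters named transitional only 14.6% and 12.3% of cells were transitional by the marker scores. The part of free RNA and of these lists in the genotype ratios was not tested.

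On ND the genotype ratios had no common direction. In Ly6Chi monocyte-like cells 2 members were at least 1.5-fold lower in the Lyz2Cre/+.Egr2fl/fl mouse, beside 7.05% of genes, with 0.587 (0.498 to 0.689) for Ms4a6d and 0.561 (0.282 to 1.06) for Ms4a7. Among cells with an interferon score below 0.1 neither was past 1.5-fold, with 0.742 (0.571 to 0.960) for Ms4a6d and 1.02 (0.245 to 3.995) for Ms4a7. In other macrophage-like cells Ms4a4a was the 1 member at least 1.5-fold higher, beside 8.46% of genes, at 1.63 (1.08 to 2.45), or 1.12 (0.539 to 2.22) among cells below that score, and Ms4a7 was at 0.707 (0.591 to 0.842). Kupffer cell-like cells, the best covered class on ND with 764 and 833 cells, had ratios of 0.993 (0.892 to 1.11) for Ms4a4c, 0.968 (0.8998 to 1.04) for Ms4a6b, 1.03 (1.00 to 1.06) for Ms4a6c, 0.986 (0.941 to 1.03) for Ms4a6d and 1.09 (1.00 to 1.18) for Ms4a7. Only Ms4a4a, at 1.57 (1.03 to 2.41) and with 3.20 CPM at most, was past 1.5-fold there, beside 3.97% of genes. Below that score, with 210 and 199 Kupffer cell-like cells, it was at 0.852 (0.395 to 1.79) and Ms4a7 at 0.962 (0.813 to 1.14).

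**Figure D4:**
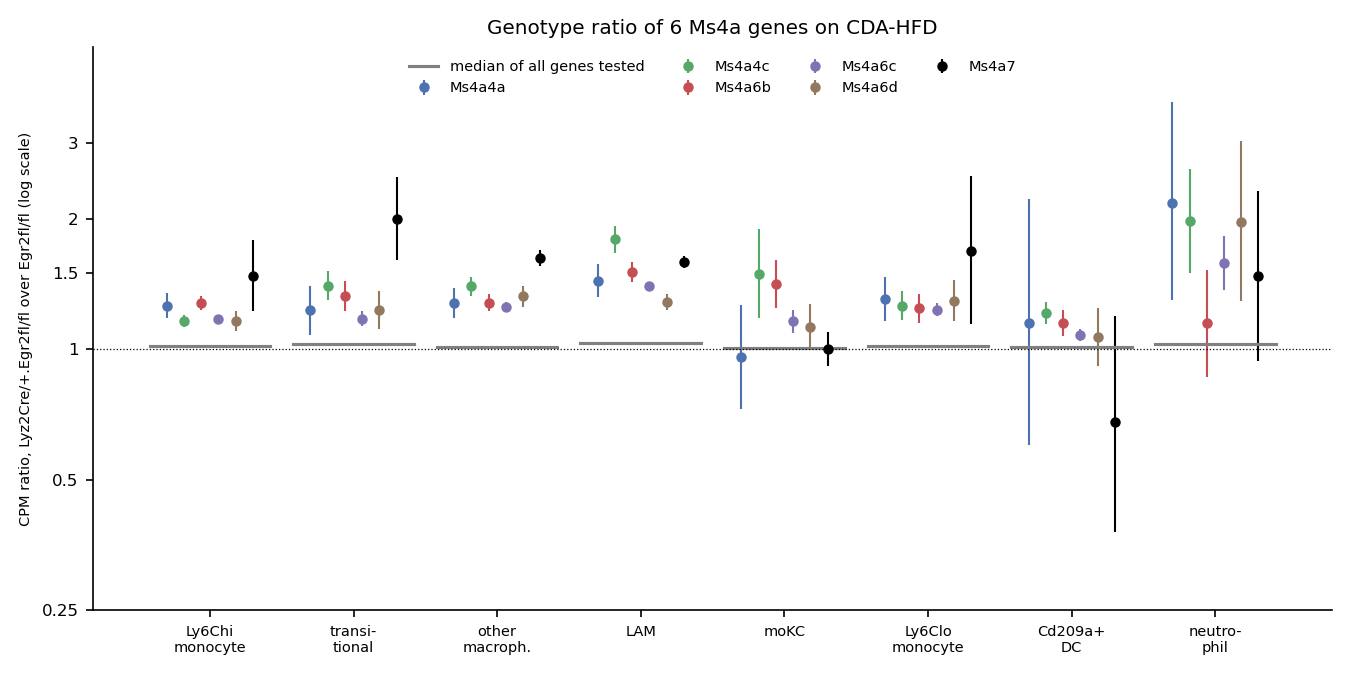
Ratio of the level in the Lyz2Cre/+.Egr2fl/fl to that in the Egr2fl/fl mouse on CDA-HFD (log axis) for each member and class, with exact binomial 95% intervals, and the median ratio of all genes tested as a grey line. All 6 members lie above 1 in neutrophil-like cells and in 5 monocyte, transitional and macrophage classes, where Ms4a7 in transitional cells is highest at 2.00. Cd209a+ dendritic cell-like cells have 5 members above 1. In moKC-like cells the intervals of 4 members lie above 1, with Ms4a7 at 1.00 and Ms4a4a at 0.961.

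The members differed in how their levels went with interferon-responding genes inside a class. Cells with a score of at least 0.3 on the interferon list (Isg15, Ifit1, Ifit2, Ifit3, Rsad2, Irf7, Oasl1, Cxcl10, Mx1 and Usp18) were set against cells below 0.1 in the 5 groups of a class and a mouse with at least 20 cells of each. Ms4a4c was 2.64 to 4.18 times higher in the high-scoring cells in these 5 comparisons, Ms4a6b 1.90 to 2.27 times, Ms4a6c 1.495 to 2.18 times and Ms4a6d 1.455 to 3.27 times, and each of their intervals lay above 1. Ms4a4a had ratios of 1.23 to 1.935 with 3 of 5 intervals above 1. Ms4a7 had no common value, with 0.994 (0.844 to 1.165) and 1.05 (0.946 to 1.15) in other macrophage-like cells and 2.01 (1.84 to 2.185) in LAM-like cells of the Lyz2Cre/+.Egr2fl/fl mouse. Its ratio of 6.015 in Ly6Chi monocyte-like cells of that mouse rested on 93 counts in 16 of 72 cells, of which 3 cells held 46. Median counts per cell were 14310 in those 72 cells, and within a class the high-scoring cells are few, between 29 and 72 per group.

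**Figure D5:**
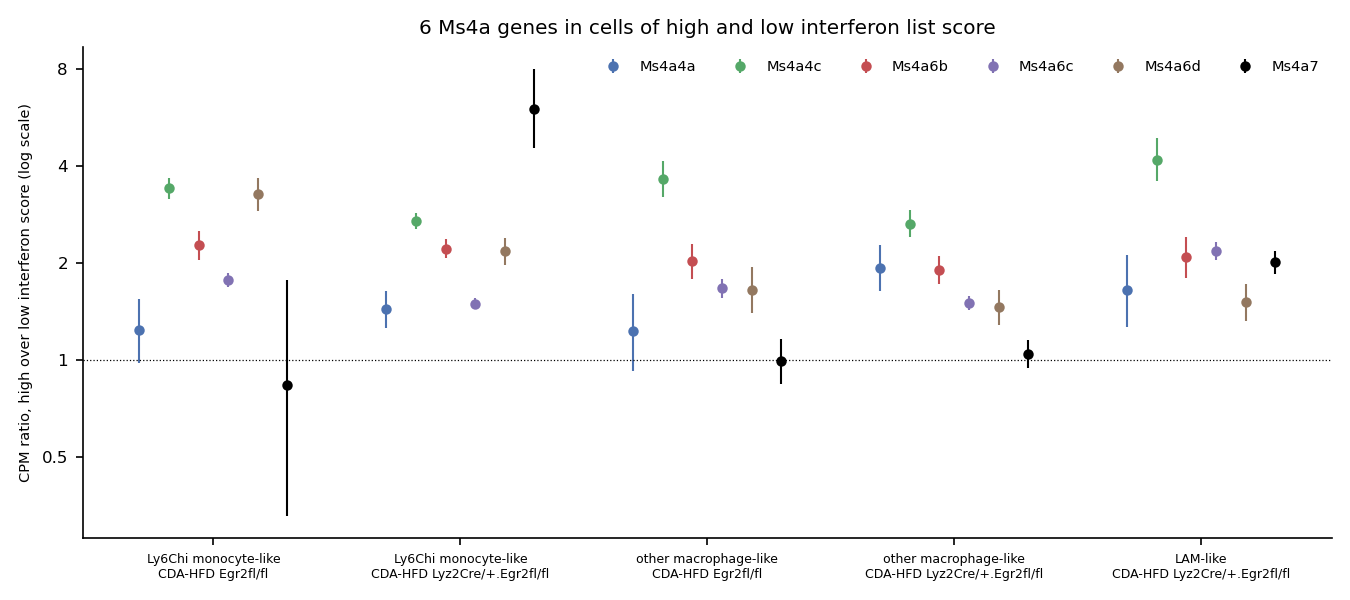
Ratio of the level in cells with a high to that in cells with a low interferon score (log axis) for each member in 5 groups of a class and a CDA-HFD-fed mouse, with exact binomial 95% intervals. Ms4a4c lies between 2.64 and 4.18 in each group, and Ms4a7 between 0.835 and 6.015.

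Across 32 sums of a class in a mouse, which share libraries and differ in depth, the levels of Ms4a6b and Ms4a6c ran most closely together of the 15 pairs of members (Pearson r = 0.968 of log2(CPM + 1)), and those of Ms4a4c and Ms4a7 least (r = -0.054). The transcripts of Ms4a6c share 6.08% of their windows of 50 bases with Ms4a6b and none of 100 bases, and reads from a shared window cannot be told apart. Ms4a4c shares 8.01% of its windows of 50 bases with Ms4a4b, and Ms4a4a and Ms4a7 share none within the family. Among 11188 genes outside the family, C3ar1, the receptor for the complement fragment C3a, had the pattern most like Ms4a7 (r = 0.932), then Tmem37, Dppa3, Olfml3 and Pf4. Mcub, a subunit of the mitochondrial calcium uniporter, was most like Ms4a4c (r = 0.909), then Ptpro, Jarid2, Tacc1 and Celf4. Atf6, a sensor of unfolded proteins, came first for both Ms4a6b (r = 0.907) and Ms4a6c (r = 0.926). The genes next to Ms4a6b were Gm44997, Mcub, Bscl2 and Pid1, and those next to Ms4a6c were Tifa, Acer3, Gm44997 and Capn2. For Ms4a6d they were Tnfsf12 (r = 0.925), Ctss, Lrp1, Mfsd1 and Oas1a, and for Ms4a4a Gm49151 (r = 0.952), F630040K05Rik, Gm21188, Gm36161 and Apoc2.

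B cell-like cells, with Ms4a1 among their leading genes, and T or NK cell-like cells were too few for a level. Among the classes with a level, Ms4a8a was the only other family member with a mean above 100 CPM. It was at 111 CPM and 134 CPM in Kupffer cell-like cells of the ND-fed mice. It was at 70.3, 109, 88.5 and 103 CPM in Ly6Chi monocyte-like cells and at 7.39 CPM and 4.11 CPM in LAM-like cells, so LAM-like cells, where Ms4a7 was high, had the least of it among these. Among the classes with a level, Ms4a4b, the neighbour of Ms4a4c, had its highest mean in Ly6Chi monocyte-like cells, 38.8 CPM. Trem2, the lipid receptor whose soluble form is tied to the human locus, was at 149 CPM and 223 CPM in Ly6Chi monocyte-like cells and at 1063 CPM and 1112 CPM in LAM-like cells of the CDA-HFD-fed mice, and at 61.5 CPM and 119 CPM in Kupffer cell-like cells of the ND-fed mice. Like Ms4a7 it was higher in LAM-like than in Ly6Chi monocyte-like cells, but its Kupffer cell-like level was near the Ly6Chi monocyte-like level of the same mice, 64.1 CPM and 92.5 CPM. Clec7a, which encodes Dectin-1, was at 1271 CPM in LAM-like cells of the Egr2fl/fl and 707 CPM in those of the Lyz2Cre/+.Egr2fl/fl mouse, opposite in direction to Ms4a4a, its partner, at 45.5 CPM and 65.5 CPM. The signalling adaptor Tyrobp was between 2388 and 3912 CPM over the monocyte and macrophage classes.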

How the data were processed

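Liver myeloid cells of 4 mice were sequenced as 1 hashtagged pool on the BD Rhapsody platform with TAS-Seq. The authors deposited a matrix of raw counts. They trimmed and filtered the reads, aligned these against transcripts of GRCm38 and kept barcodes above an inflection point. Whether reads or molecules were counted is not given in the sources used here. The submitters' processing notes name Seurat 4.1.1 and R 4.2.1. The deposited hashtag counts gave each cell's share of its own hashtag, and 7 other value columns of that table were not used. Of 16786 barcodes, 1392 that the authors named doublets were left out, no doublets were called within a mouse, and 15384 cells had at most 25% mitochondrial counts. Low values of 27 genes, including Apoe, C1qa, C1qb and C1qc but no member, are 0 in the matrix.

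Each marker list was scored per cell as the mean of log2(counts per 10000 + 1), each gene scaled to its 90th percentile. A class needed a score of 0.4 (0.25 for the Cd209a list) and a margin of 0.1 over other classes, and transitional cells a score of 0.2 on both the monocyte and the macrophage list. Some genes of the monocyte and macrophage lists entered these scores and the marker axis but are not reported here. Counts were summed per class and mouse for at least 50 cells, and ratios have exact binomial 95% intervals, which cover counting error only. A gene entered the background with 100 counts over both groups. Members were counted past a fold without this limit, and for these counts a small constant was added to each sum. The members and lists were chosen with earlier results of these data known. The genes named are the members, marker and family genes, Egr2 and, per member, the 5 genes outside the family with the most similar levels, among those with at least 500 counts. Alternatives were Seurat clusters, a stricter gate, the mean over cells, TMM scaling, a mitochondrial limit of 10%, an own-hashtag share of 90%, other thinning, other bins, other background limits and, chosen after seeing the data, cells with a low interferon score. Python 3.11.15 (numpy 2.4.6, scipy 1.17.1, pandas 2.3.3, matplotlib 3.10.9) and R 4.3.3 (Seurat 5.3.0, edgeR 4.0.16 for TMM factors only) were used, and the steps were tested on simulated data.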

Additional observations from a re-analysis of the deposited data

Results flagged for a closer look

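Some ratios lay on opposite sides of 1 in the 2 genotypes or on the 2 diets, with both intervals clear of 1. Each rests on 1 mouse per group, the difference was not tested, and the diet and genotype views use the same 4 mice. The ratio of CDA-HFD to ND in Ly6Chi monocyte-like cells was 0.859 in Egr2fl/fl and 1.14 in Lyz2Cre/+.Egr2fl/fl mice for Ms4a6c, 0.647 and 1.28 for Ms4a6d, and 0.66 and 1.74 for Ms4a7, whose level was 13.6 to 24.3 CPM there and 4.755 to 14.5 CPM in neutrophil-like cells. Among cells with an interferon score below 0.1 the pair was 0.998 and 1.57 for Ms4a6d and 2.13 and 1.95 for Ms4a7, so neither lay on opposite sides with intervals clear of 1. With Seurat clusters the Ms4a6c ratio in Egr2fl/fl mice was 1.17. The CDA-HFD to ND ratio was 0.837 and 1.38 for Ms4a6b in Ly6Clo monocyte-like cells, and 0.798 and 1.21 for Ms4a4c in Cd209a+ dendritic cell-like cells.

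The ratio of Lyz2Cre/+.Egr2fl/fl to Egr2fl/fl in Ly6Chi monocyte-like cells was 0.7695 on ND and 1.16 on CDA-HFD for Ms4a4c, 0.8845 and 1.18 for Ms4a6c, and 0.587 and 1.16 for Ms4a6d. With Seurat clusters the ND ratios of Ms4a4c and Ms4a6c were 1.01 and 1.12, above 1. In Ly6Clo monocyte-like cells it was 0.683 and 1.26 for Ms4a4c, 0.754 and 1.24 for Ms4a6b, 0.764 and 1.235 for Ms4a6c, and 0.638 and 1.30 for Ms4a6d. In Cd209a+ dendritic cell-like cells it was 0.802 and 1.21 for Ms4a4c, and in other macrophage-like cells 0.707 and 1.63 for Ms4a7. The ND-fed Egr2fl/fl mouse had the highest summed level of interferon-responding genes in Ly6Chi monocyte-like cells, 2604 CPM. Among cells with an interferon score below 0.1 the ND ratios there were 0.813 for Ms4a4c, 0.921 for Ms4a6c and 0.742 for Ms4a6d.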

How the results depend on the processing

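No paired analysis was possible because each group held 1 mouse, and for the same reason no replicate could be left out. Of 1230 ratios recomputed, 902 stayed within the counting interval of the main ratio. A further 21 changed direction where the main interval was clear of 1, and the other 307 moved beyond the interval. Ratios whose main interval held 1 were not counted as changing direction, also where they crossed 1. Of 12 ratios of LAM-like to Ly6Chi monocyte-like cells, 8 showed a level at least 1.5-fold lower, and 8 did under each alternative run. For diet in other macrophage-like cells, Seurat clusters gave values for Lyz2Cre/+.Egr2fl/fl mice only, with 4 of 6 ratios above 1, and the own-hashtag limit for Egr2fl/fl mice only, with 6 of 6.

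With Seurat clusters the ratio to Ly6Chi monocyte-like cells became 1.68 (ND Egr2fl/fl) and 1.06 (CDA-HFD Egr2fl/fl) for Ms4a4a in Ly6Clo monocyte-like, 1.065 for Ms4a6d in LAM-like (Egr2fl/fl), 1.01 for Ms4a6b in transitional and 0.775 for Ms4a6d in other macrophage-like cells (both CDA-HFD Lyz2Cre/+.Egr2fl/fl). The diet ratio became 1.17 for Ms4a6c in Ly6Chi monocyte-like cells (Egr2fl/fl), and 0.373 for Ms4a4c and 0.836 for Ms4a6b in other macrophage-like cells (Lyz2Cre/+.Egr2fl/fl). The genotype ratio on ND became 1.01 for Ms4a4c and 1.12 for Ms4a6c in Ly6Chi monocyte-like and 0.991 for Ms4a6b in other macrophage-like cells, and on CDA-HFD 0.616 for Ms4a7 in Ly6Clo monocyte-like cells. With a stricter gate Ms4a4a was at 1.01 for Ly6Clo to Ly6Chi monocyte-like cells (CDA-HFD Egr2fl/fl) and at 0.969 for diet in Ly6Chi monocyte-like cells (Egr2fl/fl). With the mean over cells the diet ratio of Ms4a7 in other macrophage-like cells (Egr2fl/fl) was 0.962. Among cells with a low interferon score, Ms4a6d in Kupffer cell-like against Ly6Chi monocyte-like cells was 1.015 (ND Egr2fl/fl), the diet ratio of Ms4a7 in Ly6Chi monocyte-like cells 2.13 (Egr2fl/fl), and the genotype ratio 0.751 for Ms4a4c in other macrophage-like, 0.852 for Ms4a4a and 0.962 for Ms4a7 in Kupffer cell-like cells on ND, and 0.931 for Ms4a7 in Ly6Chi monocyte-like cells on CDA-HFD. The cause was not tested.

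The share of LAM-like cells of the CDA-HFD-fed Egr2fl/fl mouse with an Ms4a7 count was 63.3% without thinning and 57.4% with thinning to a doubled total, against 47.3%. The share of genes at least 1.5-fold higher in LAM-like cells of the Lyz2Cre/+.Egr2fl/fl mouse was 4.21%, 1.498% of genes with at least 500 counts (3 members) and 0.839% at a fold of 2 (0 members).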
